A study of Mus musculus with 7 samples.

Results

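Lysosomal enzymes and membrane proteins were followed as 41 genes of the 43629 in the count table, chosen by gene symbol, though with earlier results of these data known: 13 proteases, 12 glycosidases, 3 sulfatases, 4 lipid hydrolases and lipid-binding helpers, 7 membrane proteins, the growth factor precursor Grn and the transcription factor Tfeb. Of these 41 genes, 40 passed the filter on low counts and were tested, and Ctss did not. Polyadenylated RNA was sequenced from 7 libraries of mouse E14 embryonic stem (ES) cells (129/Ola background) and their derivatives. Ago2 knockout cells after 5 days of XEN differentiation (KO XEN) gave 2 libraries, from lines C4 and 5-3. Wild Type E14 cells after the same 5 days (WT XEN) gave libraries A and B. Non differentiated Ago2 knockout ES cells (KO ESC), kept in serum with LIF, gave 3 libraries, C4, 5-3_1 and 5-3_2. XEN stands for extra-embryonic endoderm, and the differentiation medium held serum, activin A at 10 ng/mL and all-trans retinoic acid at 0.1 µM. Wild-type ES cells were not analysed here, so in WT XEN against KO ESC genotype and differentiation cannot be told apart. The KO XEN libraries come from different lines, so their spread includes line differences. In KO ESC, 5-3_1 and 5-3_2 share a line, and the main test counted them with C4 as 3 separate replicates. Otherwise nothing in the labels ties replicate libraries to separate cultures. The p-values therefore measure only the spread between these libraries, which within a line may be technical.

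The lysosome is the acidic organelle in which cells break down proteins, glycans and lipids taken up by endocytosis or delivered by autophagy. Its hydrolases are made in the endoplasmic reticulum, tagged with mannose 6-phosphate and sorted to the organelle, while heavily glycosylated proteins such as Lamp1 and Lamp2 form its limiting membrane. Many of these genes carry an E-box-like element in the promoter that TFEB and its relatives of the MiT/TFE family bind. The visceral endoderm of the early mouse embryo is known for strong endocytosis and for digesting maternal proteins in large lysosomes.

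The E-box core CACGTG, which reads the same on both strands, and the longer TCACGTGA, which contains it and is the centre of the element bound by TFEB, were searched in windows from 250 bases before to 50 bases after the RefSeq start sites (GRCm38.p6). Windows were given for 36 of the 41 genes. CACGTG stood in at least 1 window of 13 of these genes (36.1%), against 8.09% of all 27025 genes with a window. TCACGTGA stood in 5 (13.9%), Ctsa, Cln3, Ctsd, Gla and Mcoln1, against 1.12% of all genes. The 250 bases before the start site, on the strand of the gene, are printed with these motifs in capitals for Ctsd, the member with the highest level per kilobase over all libraries, Lamp1, the abundant membrane glycoprotein with 4 copies, Mcoln1, the lysosomal calcium channel, Gla, an alpha-galactosidase with 2 copies of the longer form, and Ctso, which had the largest rise in KO XEN and no match. Ctsd lies at chr7:142387828-142388077 (minus strand), Lamp1 at chr8:13158911-13159160 (plus strand), Mcoln1 at chr8:3500269-3500518 (plus strand), Gla at chrX:134601006-134601255 (minus strand) and Ctso at chr3:81932351-81932600 (plus strand).
Ctsd: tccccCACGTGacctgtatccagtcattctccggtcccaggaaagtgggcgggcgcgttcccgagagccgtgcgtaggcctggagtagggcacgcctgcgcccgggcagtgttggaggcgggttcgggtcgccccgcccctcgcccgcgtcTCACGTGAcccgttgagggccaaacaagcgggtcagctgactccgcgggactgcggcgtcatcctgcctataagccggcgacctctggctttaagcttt
Lamp1: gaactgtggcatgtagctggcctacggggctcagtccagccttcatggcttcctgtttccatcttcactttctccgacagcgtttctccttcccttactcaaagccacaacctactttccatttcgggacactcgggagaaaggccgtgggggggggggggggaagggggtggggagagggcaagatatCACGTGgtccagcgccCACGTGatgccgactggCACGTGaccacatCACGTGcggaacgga
Mcoln1: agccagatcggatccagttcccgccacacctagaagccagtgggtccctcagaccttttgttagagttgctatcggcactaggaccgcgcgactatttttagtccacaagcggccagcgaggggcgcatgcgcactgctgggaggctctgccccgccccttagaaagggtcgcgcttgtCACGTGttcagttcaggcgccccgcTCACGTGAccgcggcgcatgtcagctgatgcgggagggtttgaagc
Gla: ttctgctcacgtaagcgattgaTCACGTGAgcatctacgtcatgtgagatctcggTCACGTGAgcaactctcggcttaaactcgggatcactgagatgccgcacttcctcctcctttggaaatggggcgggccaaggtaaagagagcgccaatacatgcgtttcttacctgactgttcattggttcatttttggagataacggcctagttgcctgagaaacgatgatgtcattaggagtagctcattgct
Ctso: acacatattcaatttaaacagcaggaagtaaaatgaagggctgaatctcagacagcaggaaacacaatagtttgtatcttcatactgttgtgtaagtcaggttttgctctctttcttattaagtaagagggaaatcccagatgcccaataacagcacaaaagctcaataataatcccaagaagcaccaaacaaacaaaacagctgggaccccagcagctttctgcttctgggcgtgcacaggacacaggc
A match is a description of the letters and no measure of binding. Copies of CACGTG started 98 and 245 bases before the start site in Ctsd, and 61, 45, 28 and 15 bases before it in Lamp1. In KO XEN against WT XEN, 10 of the 13 genes with CACGTG in a window were called lower and 2 higher. Of the 22 tested genes without it, 10 were lower and 4 higher. Over all genes tested 23.9% were called lower and 22.3% higher, so the numbers higher were not above that share. Calls of other genes with the motif were not examined, so no background for the motif itself is given. Median log2 fold changes were -1.24 with it and -0.403 without it. Against KO ESC these medians were 1.95 and 2.04 in KO XEN, and 2.36 and 2.34 in WT XEN. For TCACGTGA, with 5 tested genes, the medians in KO XEN against WT XEN were -0.99 with it and -0.95 without it. Against KO ESC they were 0.75 and 2.13 in KO XEN, and 2.0018 and 2.4317 in WT XEN. None of these differences was tested.

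Total counts ran from 13941826 in KO XEN C4 to 48650113 in KO ESC 5-3_2. Values are CPM, counts scaled to a library total of 1000000 on TMM-scaled library sizes, in the order C4 and 5-3 for KO XEN, A and B for WT XEN, and C4, 5-3_1 and 5-3_2 for KO ESC. The Ago2 transcript stood at 122 and 9.94 CPM in KO XEN, at 394 and 432 CPM in WT XEN, and at 94.4, 9.37 and 9.65 CPM in KO ESC, so the libraries labelled C4 kept more of it than those of 5-3. The labels call both lines Ago2 knockout and do not say what allele C4 carries, and the C4 values, between those of 5-3 and WT XEN, do not bear out that label at the transcript level. Transcript levels cannot decide whether the protein was lost, which was not measured here. For KO ESC C4 there was also no wild-type ES library to compare with. The 6 visceral endoderm markers summed to 53.2 to 161 CPM in KO XEN, 11641 to 13094 CPM in WT XEN cells and 161 to 217 CPM in KO ESC, and the 8 primitive and extra-embryonic endoderm markers to 435 to 653, 3349 to 4346 and 16.3 to 43.8 CPM in the same groups. The 7 parietal endoderm markers summed to 8021 to 9433 CPM in KO XEN, 38285 to 62151 CPM in WT XEN cells and 576 to 619 CPM in KO ESC, and the 7 ES cell markers to 52.0 to 57.8, 268 to 286 and 3792 to 4116 CPM. The 8 fibroblast markers summed to 6141 to 8115 CPM in KO XEN, 521 to 1153 CPM in WT XEN cells and 18.2 to 30.2 CPM in KO ESC, with Lum at 0 in KO XEN and Col3a1 and Lum at 0 in KO ESC. This list was not uniform. In KO XEN against WT XEN 4 of the 8 were called higher, 2 lower and 2 were not called, beside 22.3% higher and 23.9% lower over all genes. Col1a2 stood at 28.5 and 36.0 CPM in KO XEN, against 212 and 57.9 CPM in WT XEN. All 3 endoderm sums were lower in KO XEN cells than in WT XEN. Called lower were all 6 visceral, 7 of 8 primitive and extra-embryonic and 5 of 7 parietal markers, and the others were not called. Parietal Plat stood at 226 and 353 CPM in KO XEN, against 146 and 231 CPM in WT XEN. Thbd stood at 16.0 and 18.0 CPM, against 13.9 and 11.5 CPM. Against KO ESC, 3 of the 6 visceral markers were called higher in KO XEN, 2 were not called and Lrp2 was lower, which alone had 159 to 200 CPM of the visceral sum in KO ESC. Over all genes 34.8% were called higher and 34.3% lower there. The KO XEN lines differed in these markers, with Ttr at 0.799 CPM in C4 and 11.8 CPM in 5-3. Cubn stood at 8.64 and 88.5 CPM in the same order, against 2.06, 15.7 and 16.5 CPM in KO ESC. Macrophages are rich in lysosomes, and their 12 markers summed to 18.2 to 19.9 CPM in KO XEN, 30.6 to 43.3 CPM in WT XEN cells and 18.0 to 22.4 CPM in KO ESC. Cd68 and Csf1r made up most of these sums and were called lower in KO XEN against WT XEN (adjusted p = 0.0497 and 0.0362). The other 4 tested macrophage markers were not called. KO XEN libraries had Cd68 at 16.0 and 11.3 CPM and Csf1r at 1.67 and 5.29 CPM. The WT XEN libraries had 27.8 and 19.1 CPM of Cd68, and 13.6 and 10.1 CPM of Csf1r. Without Cd68 and Csf1r the other 10 summed to at most 2.24 CPM in any library. Adgre1 was at 0 in both XEN groups and Ptprc in KO XEN. C1qa and C1qb were at 0 in WT XEN and KO ESC, and Lyz2 in KO ESC. The part of the endoderm and fibroblast markers in the results below was not tested, and in bulk samples fewer cells of a type and less RNA per cell cannot be told apart. The mitochondrial share was 0.781% and 0.979% in KO XEN, against 1.94% and 2.64% in WT XEN cells and 2.79% to 3.26% in KO ESC.

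The lysosomal genes together took a larger share of counts in WT XEN than in the other groups. They held 0.813% and 0.754% of all counts in KO XEN, against 2.08% and 1.84% in WT XEN cells and 0.248%, 0.217% and 0.207% in KO ESC. The groups did not overlap. Proteases made up most of this in both XEN groups, with 0.456% and 0.411% of all counts in KO XEN and 1.44% and 1.15% in WT XEN, against 0.0683%, 0.0659% and 0.0605% in KO ESC. Membrane proteins held 0.113% and 0.1195% in KO XEN, against 0.279% and 0.291% in WT XEN, and 0.0712%, 0.0617% and 0.0610% in KO ESC.

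**Figure D1:**
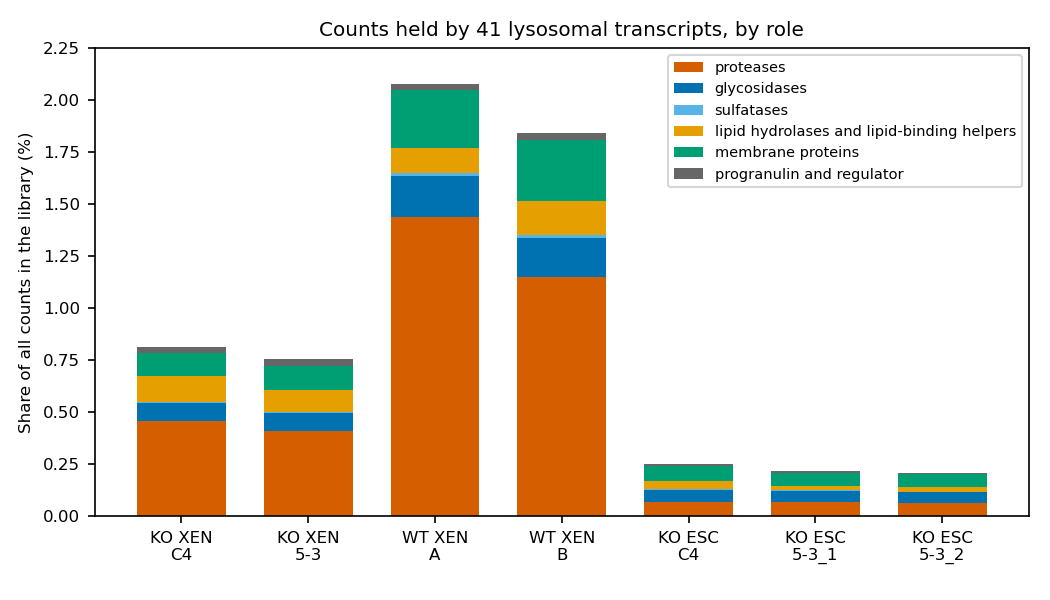
Share of all counts in each library (%, vertical axis) held by the 41 lysosomal genes, stacked by role, for KO XEN, WT XEN and KO ESC libraries. The bars reach 0.813% and 0.754% in KO XEN, 2.08% and 1.84% in WT XEN cells and at most 0.248% in KO ESC, and proteases form the largest block in both XEN groups.

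The gene that led the group differed between the 3 groups. Per kilobase of exon, Ctsd averaged 889 CPM in KO XEN, 431 CPM in WT XEN cells and 90.2 CPM in KO ESC. Lgmn averaged 97.2 CPM per kilobase in KO XEN, 1115 in WT XEN cells and 17.6 in KO ESC, and Lamp1 242, 695 and 136 in the same order. The most abundant lysosomal transcript per kilobase was therefore Ctsd, an aspartic protease, in KO XEN, Lgmn, an asparagine-specific protease, in WT XEN, and Lamp1 in KO ESC. This order depended on the length used, as the exon unions were 6.489 kb for Ctsl and 2.323 kb for Lgmn. Undivided by length, Ctsl led WT XEN at a mean of 5762 CPM, against 2590 CPM for Lgmn. Ctsd still led KO XEN (2090 CPM), before Ctsb (826), Ctsl (659) and Lamp1 (647), and Lamp1 led KO ESC (363 CPM). Per kilobase in KO XEN, Lamp1 and Psap, the saposin precursor at 186 CPM, followed Ctsd. Lamp1 had 238 and 246 and Psap 236 and 136 in the C4 and 5-3 libraries, so that they stood close in C4. In WT XEN Ctsl, a cysteine protease, followed Lgmn at 888 CPM per kilobase, with 1010 and 766 in its libraries against 1121 and 1108 for Lgmn. The lowest tested member in this measure over all libraries was Ctsk, the collagen-degrading cathepsin of osteoclasts, at 0.288 and 0.244 CPM per kilobase in KO XEN, 0.290 and 0.384 in WT XEN cells and 0.238 to 0.286 in KO ESC. Ctss, a cathepsin of antigen-presenting cells, had 2 and 1 counts in KO XEN, 0 in both WT XEN libraries and 7, 1 and 6 in KO ESC. A count of 0 there allows up to 0.0822 CPM in A and 0.0829 CPM in B, counting error only.

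**Figure D2:**
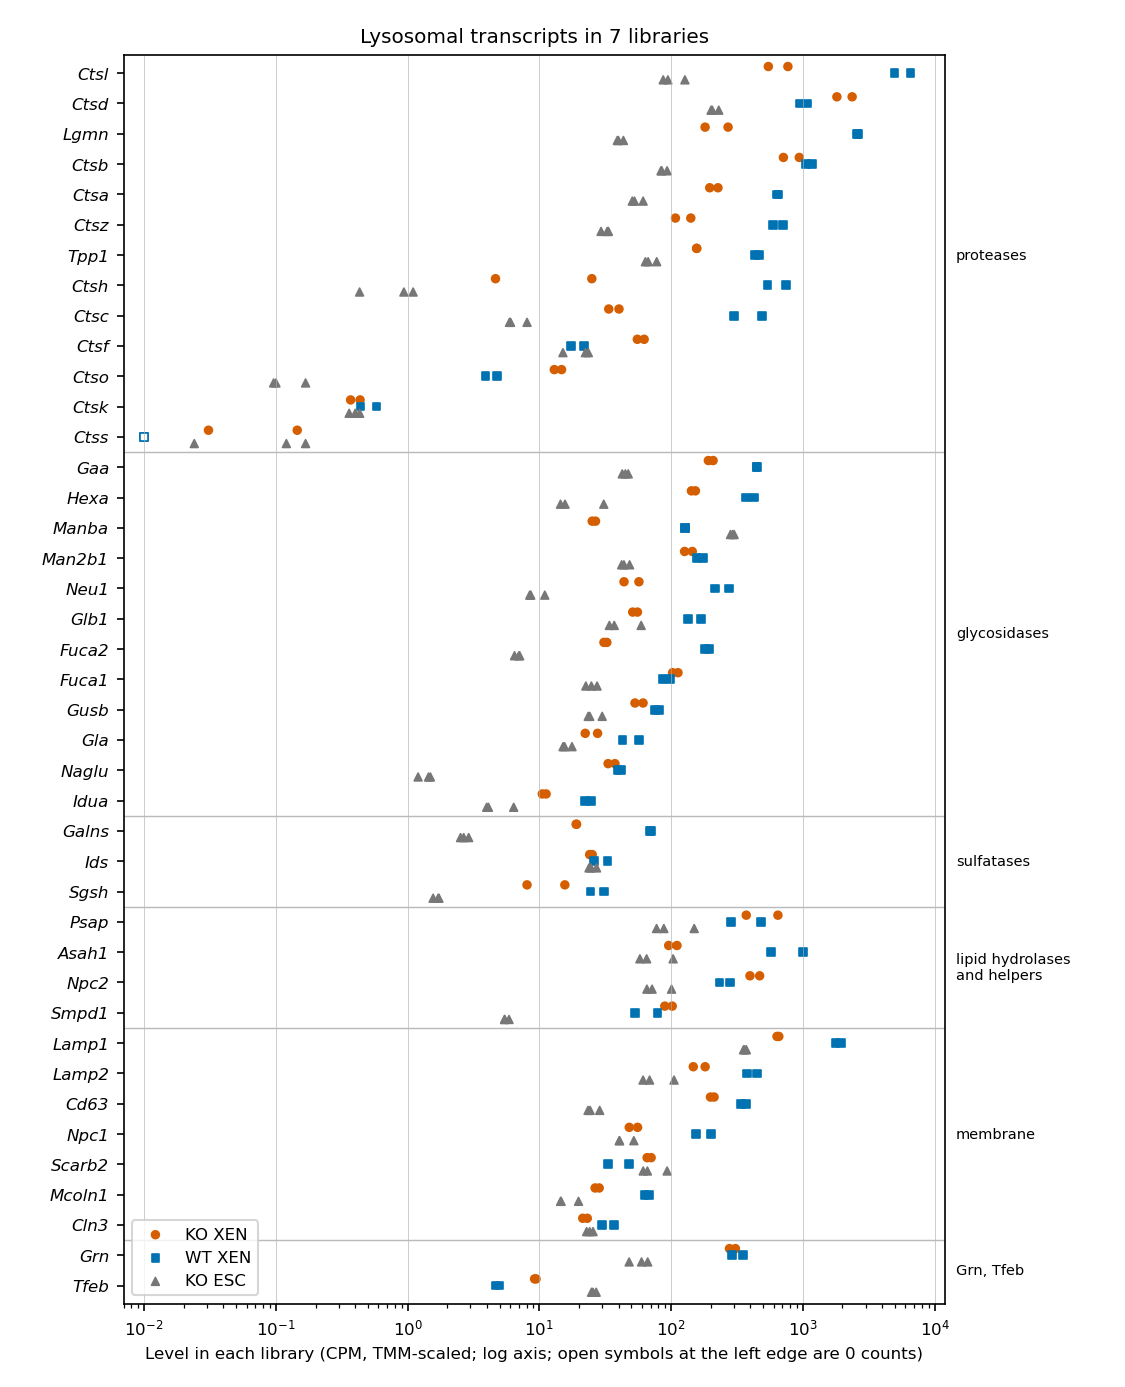
Level of each of the 41 lysosomal genes in each library (CPM on a log axis), with KO XEN as circles, WT XEN as squares and KO ESC as triangles, grouped by role. Most genes run KO ESC, KO XEN, WT XEN from left to right, Ctsd reaches 2368 CPM in KO XEN, and Manba and Tfeb are highest in KO ESC.

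KO XEN against WT XEN compares the genotypes after the same differentiation. Most lysosomal genes were lower in KO XEN: 24 of 40 fell, 6 rose and 10 did not pass the threshold, an adjusted p below 0.05 (edgeR quasi-likelihood test, Benjamini-Hochberg over all genes tested). Over all 18426 genes, 23.9% were called lower and 22.3% higher. The median log2 fold change was -1.13 over the 40 lysosomal genes and 0 over all genes. The falls ran down to -5.40 and the rises up to 1.68 on the log2 scale, and both ends were proteases. Without both C4 libraries, which leaves 1 KO XEN library, 25 genes were lower and 5 higher, with a median of -1.13.

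**Figure D3:**
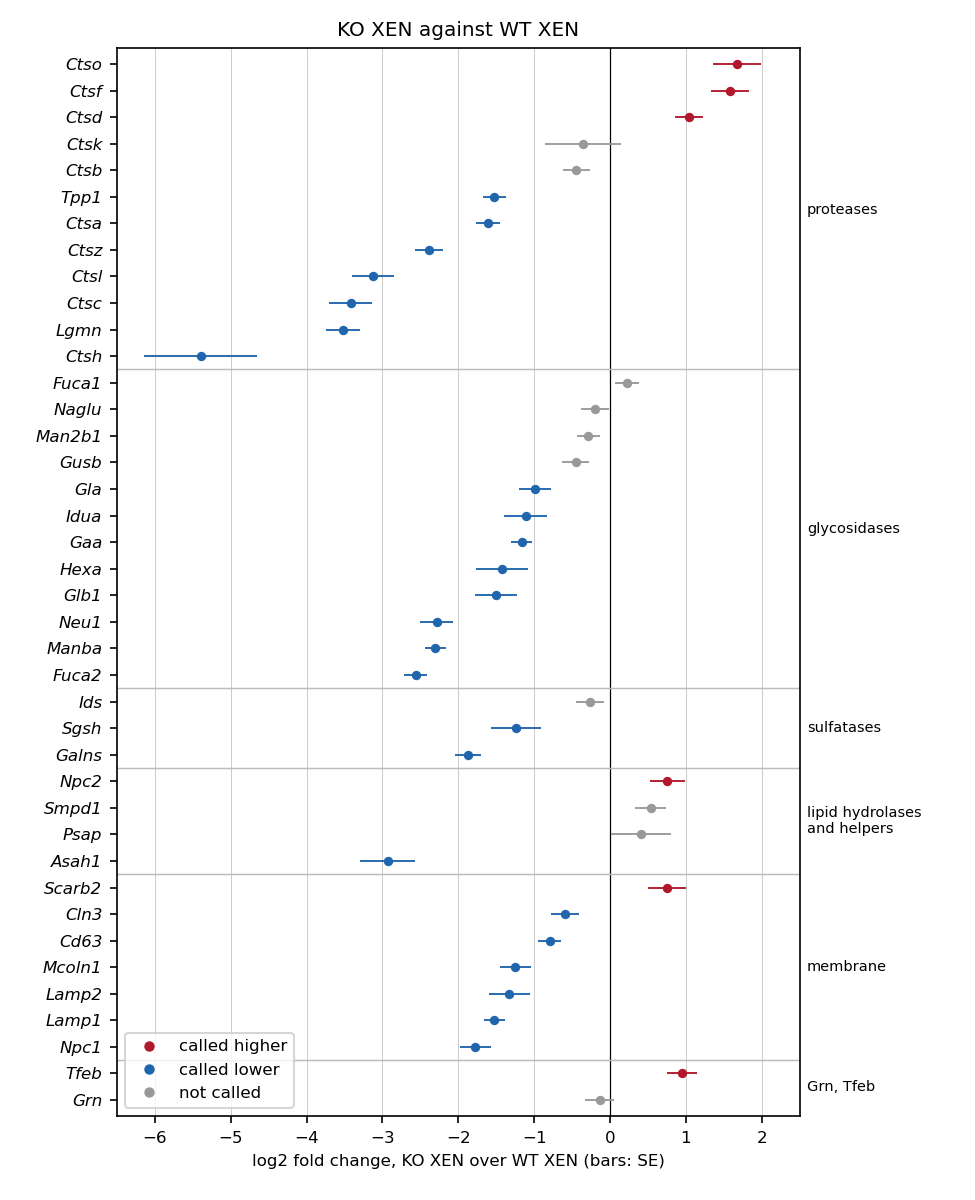
Log2 fold change of KO XEN over WT XEN (horizontal axis, bars are SE) for the 40 tested lysosomal genes, grouped by role and coloured by call. Proteases span from -5.40 for Ctsh to 1.68 for Ctso, 8 of 12 glycosidases are called lower, and 6 of 7 membrane proteins are called lower.

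Among the 12 tested proteases, 7 fell, 3 rose and 2 did not pass. Ctsh, a cysteine protease with aminopeptidase activity (chromosome 9, 90054152 to 90076089, mm10), stood at 4.65 and 25.0 CPM in KO XEN, against 740 and 540 CPM in WT XEN, and 0.432, 0.937 and 1.10 CPM in KO ESC. Its XEN groups did not overlap, and the KO XEN lines differed from each other more than for any other member. The log2 fold change was -5.40 ± 0.74 (SE; adjusted p = 0.000977), -4.68 without KO XEN C4 and -7.18 without KO XEN 5-3. Lgmn (chromosome 12, 102394084 to 102439813) stood at 181 and 271 CPM in KO XEN, against 2605 and 2575 CPM in WT XEN, and 39.1, 43.4 and 39.8 CPM in KO ESC. Legumain cleaves after asparagine and also processes cathepsins, and its transcript differed little between the WT XEN libraries. It fell by 3.52 ± 0.22 on the log2 scale (adjusted p = 0.000131). Ctsc, the dipeptidyl peptidase that activates serine proteases of granules (chromosome 7, 88278085 to 88310888), stood at 40.2 and 33.6 CPM in KO XEN, against 487 and 300 CPM in WT XEN, and 8.07, 5.93 and 6.04 CPM in KO ESC. It fell by 3.42 ± 0.28 (adjusted p = 0.000196), with no overlap between groups.

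Ctsl (chromosome 13, 64359337 to 64370890), a broad endopeptidase, stood at 547 and 770 CPM in KO XEN, against 6556 and 4969 CPM in WT XEN, and 127, 94.6 and 87.1 CPM in KO ESC. The groups were far apart, and in WT XEN this gene alone held 31.6% and 25.3% of the counts of the 41 genes, against 6.65% and 9.95% in KO XEN and 4.32% to 5.30% in KO ESC. Ctsl fell by 3.13 ± 0.28 on the log2 scale in KO XEN against WT XEN (adjusted p = 0.00022). The other proteases that fell were the carboxypeptidase Ctsz (log2 fold change -2.39), the carboxypeptidase Ctsa (-1.61), which protects Neu1 and Glb1 in a complex, and the tripeptidyl peptidase Tpp1 (-1.52). Ctsb, the other highly expressed cysteine cathepsin, stood at 940 and 712 CPM in KO XEN, against 1064 and 1182 CPM in WT XEN, and did not pass (log2 fold change -0.44 ± 0.18, adjusted p = 0.0705). With the line as a block Ctsb passed (adjusted p = 0.0409), as it did without WT XEN A (0.0468) or KO XEN C4 (0.0368).

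Ctsd, Ctso and Ctsf went the other way. Ctsd (chromosome 7, 142375911 to 142388038) stood at 2368 and 1813 CPM in KO XEN, against 1082 and 945 CPM in WT XEN, and 205, 230 and 201 CPM in KO ESC. Both KO XEN libraries lay above both WT XEN libraries, and Ctsd held 28.8% and 23.4% of the counts of the 41 genes in KO XEN, against 5.22% and 4.81% in WT XEN cells and 8.55% to 11.0% in KO ESC. It rose by 1.04 ± 0.18 on the log2 scale (adjusted p = 0.00266). Ctso, a less studied cysteine cathepsin (chromosome 3, 81932601 to 81956725), stood at 14.7 and 13.0 CPM in KO XEN, against 4.74 and 3.90 CPM in WT XEN, and 0.168, 0.0961 and 0.100 CPM in KO ESC. Its counts in KO ESC were only 7, 4 and 5, and the 3 groups did not overlap. It rose by 1.68 ± 0.31 (adjusted p = 0.00367). Ctsf, a cysteine cathepsin with a long propeptide (chromosome 19, 4855130 to 4860918), stood at 62.4 and 55.4 CPM in KO XEN, against 21.9 and 17.4 CPM in WT XEN, and 15.1, 23.5 and 22.4 CPM in KO ESC. WT XEN and KO ESC overlapped, and KO XEN stood above both. Ctsf rose by 1.58 ± 0.25 against WT XEN (adjusted p = 0.00186).

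Of the 12 glycosidases 8 fell and 4 did not pass. Fuca1 alone had a positive log2 fold change among the 12, 0.23 (adjusted p = 0.282). Manba, the beta-mannosidase that removes the last mannose of N-glycans (chromosome 3, 135485611 to 135571404), stood at 25.2 and 26.7 CPM in KO XEN, against 128 and 128 CPM in WT XEN, and 283, 294 and 301 CPM in KO ESC. It ran opposite to most members, highest in ES cells, and no groups overlapped. It fell by 2.30 ± 0.14 on the log2 scale in KO XEN against WT XEN (adjusted p = 0.000129). Hexa, the alpha subunit of beta-hexosaminidase that degrades GM2 ganglioside (chromosome 9, 59539540 to 59565109), stood at 143 and 153 CPM in KO XEN, against 368 and 427 CPM in WT XEN, and 30.8, 15.7 and 14.5 CPM in KO ESC. Its log2 fold change was -1.43 ± 0.34 (adjusted p = 0.0111), and the groups did not overlap. Gaa, the acid alpha-glucosidase that digests glycogen (chromosome 11, 119267887 to 119285454), stood at 192 and 208 CPM in KO XEN, against 444 and 450 CPM in WT XEN, and 45.0, 47.3 and 42.6 CPM in KO ESC. It fell by 1.16 ± 0.14 (adjusted p = 0.000561).

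Glb1, the beta-galactosidase used as a mark of senescent cells (chromosome 9, 114401076 to 114474898), stood at 51.1 and 55.5 CPM in KO XEN, against 134 and 168 CPM in WT XEN, and 59.3, 37.0 and 34.0 CPM in KO ESC. KO XEN overlapped KO ESC and lay below WT XEN. Glb1 fell by 1.50 ± 0.28 against WT XEN (adjusted p = 0.00354). Its exons share 165 bases with Tmppe on the same strand. Reads there fit both genes, and how counting treated them is not given in the sources used here. Naglu, which removes N-acetylglucosamine from heparan sulfate (chromosome 11, 101070012 to 101077672), stood at 33.3 and 37.5 CPM in KO XEN, against 41.8 and 39.2 CPM in WT XEN, and 1.49, 1.20 and 1.44 CPM in KO ESC. Both XEN groups were high and close, with a log2 fold change of -0.19 ± 0.19 (adjusted p = 0.431). The fucosidase Fuca2 (-2.56) and the sialidase Neu1 (-2.29) also fell, as did the heparan and dermatan sulfate enzyme Idua (-1.11) and Gla (-0.99). Gusb, the beta-glucuronidase, had a log2 fold change of -0.45 (adjusted p = 0.073), which passed with the line as a block (adjusted p = 0.0401) and without KO ESC C4 (0.0289). The alpha-mannosidase Man2b1 had -0.28 (adjusted p = 0.165). Among the 3 sulfatases, which remove sulfate from glycosaminoglycans, Galns (-1.87) and Sgsh (-1.24) fell, and Ids had -0.26 (adjusted p = 0.291).

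The lipid group was mixed. Asah1, the acid ceramidase (chromosome 8, 41340197 to 41374773), stood at 111 and 95.9 CPM in KO XEN, against 573 and 1005 CPM in WT XEN, and 104, 58.0 and 65.2 CPM in KO ESC. KO XEN lay with KO ESC and far below WT XEN, and Asah1 fell by 2.93 ± 0.36 (adjusted p = 0.000616). Npc2, the soluble cholesterol carrier of the lysosome (chromosome 12, 84754562 to 84773152), stood at 397 and 470 CPM in KO XEN, against 281 and 233 CPM in WT XEN, and 101, 71.7 and 65.5 CPM in KO ESC. KO XEN was the highest of the 3 groups, and Npc2 rose by 0.76 ± 0.23 against WT XEN (adjusted p = 0.029). Smpd1, the acid sphingomyelinase (chromosome 7, 105554360 to 105558389), stood at 89.6 and 102 CPM in KO XEN, against 78.8 and 53.3 CPM in WT XEN, and 5.45, 5.88 and 5.44 CPM in KO ESC. The XEN groups did not overlap, but the log2 fold change of 0.54 ± 0.21 did not pass (adjusted p = 0.0653), and passed without WT XEN A (0.78, adjusted p = 0.0243). Psap, whose saposins help the lipid hydrolases, overlapped between XEN groups, with 647 and 372 CPM in KO XEN, against 285 and 480 CPM in WT XEN. Its log2 fold change was 0.41 (adjusted p = 0.429), and -0.04 without KO XEN C4.

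Of the 7 membrane proteins 6 fell and 1 rose. Lamp1 (chromosome 8, 13159161 to 13175338) stood at 637 and 657 CPM in KO XEN, against 1772 and 1946 CPM in WT XEN, and 373, 362 and 355 CPM in KO ESC. The 3 groups were well separated, and Lamp1 fell by 1.52 ± 0.14 on the log2 scale (adjusted p = 0.00025). Lamp2, its relative needed for autophagy (chromosome X, 38401357 to 38456454), stood at 147 and 181 CPM in KO XEN, against 378 and 448 CPM in WT XEN, and 105, 61.3 and 68.7 CPM in KO ESC. It fell by 1.33 ± 0.27 (adjusted p = 0.00522), again with no overlap. Cd63, a tetraspanin of late endosomes (chromosome 10, 128900989 to 128912822), stood at 199 and 212 CPM in KO XEN, against 341 and 372 CPM in WT XEN, and 23.4, 28.7 and 24.3 CPM in KO ESC. Its fall was smaller (log2 fold change -0.79 ± 0.16, adjusted p = 0.00457). The cholesterol exporter Npc1 (-1.77), Mcoln1 (-1.25) and the battenin gene Cln3 (-0.59) were also called lower.

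Scarb2, a sorting receptor of the lysosomal membrane (chromosome 5, 92441314 to 92506833), was the member of this group that rose. It stood at 65.8 and 70.5 CPM in KO XEN, against 48.0 and 33.1 CPM in WT XEN, and 93.3, 61.4 and 66.1 CPM in KO ESC. WT XEN was the lowest group and KO XEN overlapped KO ESC. The log2 fold change was 0.75 ± 0.26 (adjusted p = 0.0427), close to the threshold.

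Grn and Tfeb stood outside these groups. Grn, which encodes progranulin, a secreted protein that is cleaved to granulins in lysosomes (chromosome 11, 102430315 to 102437048), stood at 277 and 308 CPM in KO XEN, against 292 and 349 CPM in WT XEN, and 66.4, 59.7 and 48.0 CPM in KO ESC. The XEN groups overlapped (log2 fold change -0.13 ± 0.19, adjusted p = 0.604). Tfeb (chromosome 17, 47737030 to 47792419) stood at 9.44 and 9.20 CPM in KO XEN, against 4.99 and 4.65 CPM in WT XEN, and 24.9, 27.0 and 25.5 CPM in KO ESC. The order of its groups, KO ESC above KO XEN above WT XEN, was the reverse of that of the summed lysosomal counts. Tfeb rose by 0.95 ± 0.20 in KO XEN against WT XEN (adjusted p = 0.00566).

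Several calls near the threshold were lost when single libraries were left out, while 23 of the 30 called members were called under all 14 alternative settings and none of the 30 changed sign. Gla did not pass without KO XEN C4 (log2 fold change -0.85, adjusted p = 0.0505). Hexa did not pass without WT XEN B (-1.32, adjusted p = 0.0547) or KO XEN C4 (-1.38, adjusted p = 0.0645). Idua did not pass without WT XEN B (-1.04, adjusted p = 0.0669), KO XEN C4 (-1.16, adjusted p = 0.0569) or KO XEN 5-3 (-1.13, adjusted p = 0.0649). Sgsh did not pass without WT XEN B (-1.05, adjusted p = 0.0897) or KO XEN 5-3 (-0.91, adjusted p = 0.0573). Npc2 did not pass without KO ESC 5-3_1 (0.0585), WT XEN A (0.0666), WT XEN B (0.144), KO XEN C4 (0.0547) or KO XEN 5-3 (0.186), with log2 fold changes of 0.55 to 0.87 over all settings. Scarb2 lost its call in 8 settings, with log2 fold changes of 0.51 without WT XEN B, 0.80 without KO XEN C4, 0.62 without KO XEN 5-3, 0.68 without KO ESC 5-3_1 and 0.75 without KO ESC 5-3_2. Cln3 lost its call in 6, with -0.43 without WT XEN B, -0.53 without KO XEN C4, -0.72 without KO XEN 5-3 and -0.59 without KO ESC 5-3_2. Genes on opposite strands that overlap at exons have uncertain counts because the strand setting of counting is not given in the sources used here. Examples are Cln3 and Apobr, Idua and Dgkq, Ctsb and Fdft1 (774 bases), and Ctsa with Pltp and Neurl2 (819 bases). On unscaled library totals Fdft1 stood at 53.1 to 139 CPM, against a lowest value of 86.1 for Ctsb. Pltp stood at 10.9 to 151 CPM, against a lowest value of 52.1 for Ctsa.

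KO XEN against KO ESC compares knockout cells after and before differentiation. Most lysosomal genes were higher in KO XEN: 31 of 40 rose, 2 fell and 7 did not pass. Over all genes 34.8% were called higher and 34.3% lower. The median log2 fold change was 2.04 over the 40 genes and -0.08 over all genes. WT XEN against KO ESC gave 34 higher, 3 lower and 3 not called, with 32.2% of all genes higher and 30.3% lower, and medians of 2.43 and -0.03. Both comparisons use the same KO ESC libraries.

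**Figure D4:**
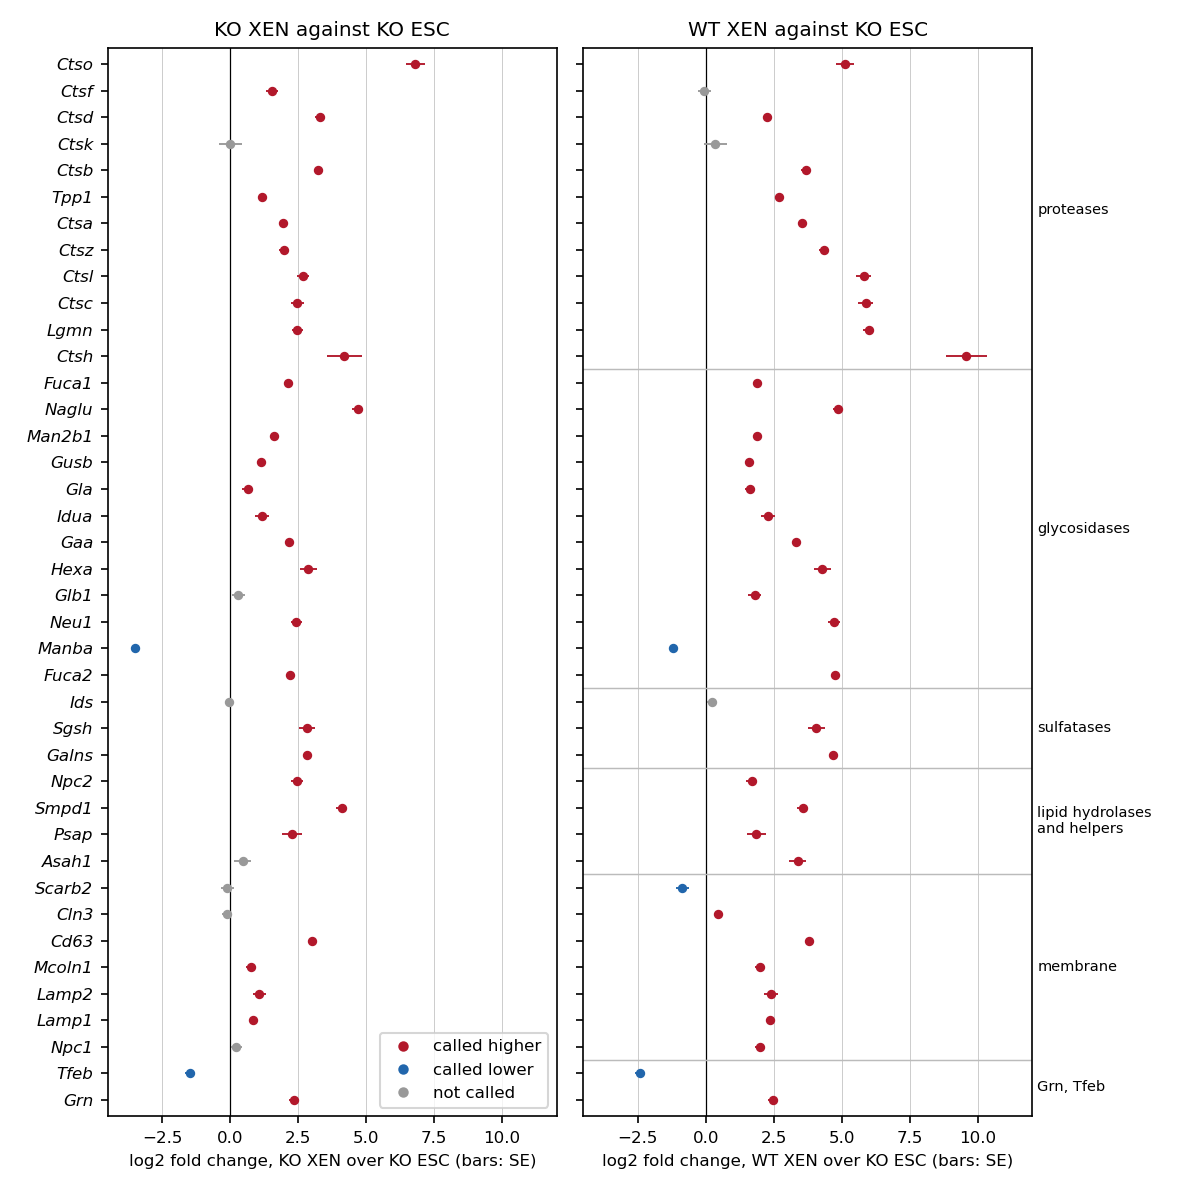
Log2 fold change of KO XEN over KO ESC (left) and of WT XEN over KO ESC (right) for the 40 tested lysosomal genes, with SE bars and calls by colour. Manba and Tfeb are called lower in both panels, Ctso leads the left panel at 6.80 and Ctsh the right panel at 9.58.

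Proteases rose in both XEN groups. In KO XEN 11 of 12 rose and 1 did not pass, and in WT XEN 10 rose and 2 did not pass, with median log2 fold changes of 2.47 in KO XEN and 4.02 in WT XEN against KO ESC. Ctso had the largest rise in KO XEN, 6.80 ± 0.35 (adjusted p = 3.06e-06), and rose by 5.12 ± 0.34 in WT XEN (adjusted p = 1.54e-05). Ctsh rose by 4.19 ± 0.65 in KO XEN (adjusted p = 0.000645; 4.91 without KO XEN C4 and 2.39 without KO XEN 5-3) and by 9.58 ± 0.76 in WT XEN (adjusted p = 3.07e-05). Both genes stood at no more than 1.10 CPM in KO ESC. Lgmn rose by 2.47 ± 0.18 in KO XEN and by 5.99 ± 0.21 in WT XEN. Ctsc rose by 2.46 ± 0.24 in KO XEN and by 5.88 ± 0.27 in WT XEN, and Ctsl by 2.68 ± 0.23 in KO XEN and by 5.81 ± 0.26 in WT XEN. Adjusted p for these 3 genes lay between 2.34e-06 and 5.13e-05. Ctsd rose by 3.30 ± 0.17 in KO XEN (adjusted p = 2.86e-06) and by 2.26 ± 0.16 in WT XEN (adjusted p = 2.11e-05). Ctsf rose in KO XEN (1.53 ± 0.22, adjusted p = 0.000455), while in WT XEN its log2 fold change was -0.05 ± 0.23 (adjusted p = 0.865). Ctsk did not pass in either.

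Glycosidases rose in 10 of 12 cases in KO XEN and 11 of 12 in WT XEN, and Manba was called lower in both. Naglu was the glycosidase with the largest rise in both, 4.68 ± 0.19 in KO XEN (adjusted p = 1.48e-06) and 4.87 ± 0.19 in WT XEN (adjusted p = 2.61e-06). Hexa rose by 2.86 ± 0.31 in KO XEN and by 4.29 ± 0.33 in WT XEN, and Gaa by 2.15 ± 0.13 in KO XEN and by 3.31 ± 0.13 in WT XEN. Manba fell by 3.49 ± 0.14 in KO XEN (adjusted p = 1.48e-06) and by 1.19 ± 0.13 in WT XEN (adjusted p = 0.000116). It was the only glycosidase called lower in either comparison. Glb1 did not pass in KO XEN (0.30 ± 0.25, adjusted p = 0.312) and passed without KO ESC C4 (0.59, adjusted p = 0.0127), and in WT XEN it rose by 1.80 ± 0.25 (adjusted p = 0.000431). Gla rose in KO XEN (0.63, adjusted p = 0.0183), a call lost without KO ESC 5-3_1 (0.52), KO ESC 5-3_2 (0.59) or KO XEN 5-3 (0.38). Galns and Sgsh, both sulfatases, each had a log2 fold change of 2.82 in KO XEN, and of 4.70 and 4.06 in WT XEN, all called, whereas Ids passed in neither.

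Among the lipid genes Smpd1 rose by 4.10 ± 0.20 in KO XEN (adjusted p = 2.52e-06) and by 3.56 ± 0.20 in WT XEN (adjusted p = 7.41e-06). Npc2 and Psap also rose in both. Asah1 rose in WT XEN (3.38 ± 0.31, adjusted p = 6.27e-05), and in KO XEN its log2 fold change of 0.45 ± 0.30 did not pass (adjusted p = 0.217), except without KO ESC C4 (0.75, adjusted p = 0.0404). Of the membrane proteins 4 of 7 rose in KO XEN and 6 of 7 in WT XEN. Cd63 had the largest rise among them, 3.01 ± 0.14 in KO XEN and 3.81 ± 0.15 in WT XEN, whereas Lamp1 rose by 0.83 ± 0.13 in KO XEN and by 2.36 ± 0.13 in WT XEN. Lamp2 rose by 1.07 ± 0.24 in KO XEN (adjusted p = 0.00443) and by 2.397 ± 0.24 in WT XEN. Mcoln1 rose by 0.75 ± 0.18 in KO XEN (adjusted p = 0.00688), and without KO XEN 5-3 both Lamp2 (0.83, adjusted p = 0.0546) and Mcoln1 (adjusted p = 0.0719) lost their calls. Npc1, Scarb2 and Cln3 did not pass in KO XEN. In WT XEN Scarb2 fell by 0.86 ± 0.24 on the log2 scale (adjusted p = 0.0136), which did not pass without WT XEN B (-0.62). The call of Cln3 in WT XEN (0.47, adjusted p = 0.0383) was lost in 10 of 14 settings, including without each library other than WT XEN A, with adjusted p from 0.0557 without KO XEN C4 to 0.22 without WT XEN B. Grn rose by 2.33 ± 0.17 in KO XEN and by 2.47 ± 0.17 in WT XEN, and Tfeb fell by 1.47 ± 0.18 in KO XEN (adjusted p = 0.000194) and by 2.42 ± 0.19 in WT XEN (adjusted p = 3.09e-05).

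A further 85 lysosome genes, 83 of them tested, gave a wider view of the organelle. In KO XEN against WT XEN 11 were higher, 41 lower and 31 not called, with a median log2 fold change of -0.58, beside 22.3% higher and 23.9% lower over all genes. Counts in the smaller lists that follow rest on few genes and were not tested against these shares. The counts of higher and lower genes were 46 and 11 in KO XEN against KO ESC (median 0.65), and 65 and 3 in WT XEN against KO ESC (median 1.31). Over all genes 34.8% were higher and 34.3% lower in KO XEN against KO ESC. In WT XEN against KO ESC these shares were 32.2% and 30.3%. Of 16 subunits and helpers of the proton pump that acidifies the organelle, 9 were lower in KO XEN cells than in WT XEN cells and 7 did not pass. The smallest adjusted p were those of Atp6ap2 (-2.53 ± 0.19), Atp6v0a1 (-2.42 ± 0.20) and Atp6v1a (-1.69 ± 0.18). Against KO ESC 9 of the 16 rose and 3 fell in KO XEN, and 14 rose in WT XEN.

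Of 9 genes for mannose 6-phosphate tagging and sorting, 2 were higher and 4 lower in KO XEN cells than in WT XEN. Over all genes 22.3% were higher and 23.9% lower, so the number higher was near that share. Gnptab, which encodes the enzyme that starts the tag, stood at 25.9 and 25.9 CPM in KO XEN, against 181 and 245 CPM in WT XEN, and 74.2, 67.0 and 69.3 CPM in KO ESC. KO XEN was below both other groups, with log2 fold changes of -3.04 ± 0.19 against WT XEN (adjusted p = 0.000131) and -1.44 ± 0.17 against KO ESC (adjusted p = 0.000138). Sort1, the sorting receptor sortilin, stood at 233 and 251 CPM in KO XEN, against 63.4 and 41.7 CPM in WT XEN, and 49.8, 39.6 and 40.2 CPM in KO ESC. It went the opposite way, higher in KO XEN by 2.20 ± 0.23 against WT XEN (adjusted p = 0.000358) and by 2.49 ± 0.20 against KO ESC (adjusted p = 2.05e-05). Gga2, a sorting adaptor, was lower in KO XEN cells than in WT XEN (-1.68 ± 0.23). Of the 2 tested cathepsin inhibitors, Cst3, which encodes cystatin C, was lower in KO XEN cells than in WT XEN (-1.36 ± 0.22, adjusted p = 0.002).

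Over all genes 23.9% were lower and 22.3% higher in KO XEN than in WT XEN. Among 17 genes for MiT/TFE factors and nutrient sensing at the lysosome, 9 were lower and 2 higher. Folliculin, encoded by Flcn (-1.52 ± 0.17), its partner Fnip2 (-2.98 ± 0.32) and the GTPase gene Rragc were the 3 with the smallest adjusted p, all lower. Mitf, a relative of Tfeb, fell by 4.76 ± 0.77 in KO XEN against KO ESC (adjusted p = 0.000778). Tfec, another relative, chosen after its values were seen, stood at 0.0726 and 0.585 CPM in KO XEN, against 64.2 and 11.2 CPM in WT XEN, and 0, 0.3843 and 0.4003 CPM in KO ESC. Unlike Tfeb and Mitf it was highest in WT XEN, whose libraries differed widely, and its log2 fold change was -6.56 ± 1.28 in KO XEN against WT XEN (adjusted p = 0.00447). Of the 25 other hydrolases 13 were lower and 4 higher in KO XEN than in WT XEN, with Scpep1 and Ppt1 at -1.53 and -1.67. Against KO ESC 20 of the 25 rose in KO XEN and 24 in WT XEN, beside 34.8% and 32.2% of all genes. Arsb (4.41 ± 0.32) and Creg1 (2.97 ± 0.22) were among those that rose in KO XEN. Of 14 other membrane proteins 5 were lower and 3 higher in KO XEN than in WT XEN, the number higher being near the 22.3% over all genes. Laptm4a stood at 957 and 962 CPM in KO XEN, against 305 and 277 CPM in WT XEN, and 151, 140 and 145 CPM in KO ESC. It was higher by 1.72 ± 0.14 in KO XEN than in WT XEN (adjusted p = 0.000196), its relative Laptm4b by 2.09 ± 0.19 (adjusted p = 0.000231), and the cystine exporter gene Ctns was lower (-3.02 ± 0.41, adjusted p = 0.00089).

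The knockout lines C4 and 5-3 each had libraries before and after differentiation. In KO XEN the log2 ratio of C4 over 5-3 had a median of -0.09 over the 40 genes and ran from -2.43 for Ctsh to 0.95 for Sgsh, with Ctsh the 1 gene beyond 1 in size. In KO ESC the median was 0.19, with a range from -1.24 for Ctsh to 1.03 for Hexa and 2 genes beyond 1. Ctsh was thus lower in C4 than in 5-3 in both states. Sgsh, at 15.6 CPM in C4 and 8.06 CPM in 5-3, was the member with the largest difference towards C4 in KO XEN. A test of whether differentiation acted differently in the lines (edgeR, 2 residual degrees of freedom) called 0 of 18426 genes (0%), with 1844 at an unadjusted p under 0.05. KO XEN C4, KO XEN 5-3 and KO ESC C4 are single libraries there, so the spread came only from the pair of 5-3 ES libraries and the WT XEN pair. For the lysosomal genes 0 were called and 5 of 40 had an unadjusted p under 0.05, namely Hexa, Lamp2, Ctsl, Npc2 and Glb1, a share near that over all genes.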

How the data were processed

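Messenger RNA of 7 libraries was analysed. STAR 2.4.2a (alignment, mm10) and featureCounts 1.4.5-p1 (counting) are the tools named in the submitters' processing notes. The authors deposited raw counts per Ensembl gene. Per the labels libraries are reverse-stranded; whether counting used strand, which annotation it used and any filters are not given in the sources used here. TruSeq RNA libraries were made from Trizol-extracted RNA, per the labels' protocols.

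Symbols, positions and exon lengths came from GENCODE M21 (GRCm38, the assembly of mm10), which matched all 41 genes. All libraries entered a single edgeR 4.0.16 quasi-likelihood fit (R 4.3.3) with a coefficient for each of 3 groups. Sizes were scaled by TMM, and filterByExpr by group kept 18426 of 43629 genes. Benjamini-Hochberg adjustment ran over all of them. Residual degrees of freedom numbered 4, and prior ones had a median of 3.92. SE is the absolute log2 fold change over the square root of F. Levels per kilobase divide CPM by the union of exons. Precision is limited by 2 or 3 libraries a group; the count-based floor covers counting error only.

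Alternatives were other scaling (RLE, upper quartile), no filter, DESeq2 1.42.0, only the 2 groups compared, line as a block, each library left out and both C4 libraries left out. Pairing by line rests on the labels; across 18426 genes, the C4 minus 5-3 difference in KO XEN had a Pearson's r of 0.0634 with that in KO ESC. Both lines are labelled knockout, so the block cannot separate line from genotype where WT XEN is compared. The pipeline was tested on simulated data.

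The 41 members, the other gene lists and the tests were chosen with earlier results of these data known. Members given with every library are, per comparison, the 4 largest called rises and falls, the 3 highest per kilobase among proteases, glycosidases and membrane proteins, and Tfeb and Grn; from each other list, up to 3 genes with the smallest adjusted p. Some genes that this rule picks are not reported here. Asah1 and Npc2, also given with every library, and other members named were chosen after their values were seen.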

Additional observations from a re-analysis of the deposited data

How the results depend on the processing

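The number of all genes called higher in KO XEN than in WT XEN, 4115, ranged from 2597 without WT XEN B to 4641 without KO ESC C4 when single libraries were left out, with 2697 without KO XEN 5-3. Counts of called lysosomal genes stayed within 1.5 times of the reported ones where they exceeded 3. They ran from 4 to 6 higher and 20 to 26 lower in KO XEN against WT XEN, from 28 to 33 higher in KO XEN against KO ESC, and from 33 to 34 higher in WT XEN against KO ESC. The median log2 fold change of the 40 genes ran from -1.24 to -1.08, from 1.88 to 2.13 and from 2.26 to 2.62 in these comparisons. Of 798 recomputed values of the 19 members picked by the stated rule, which leaves out Npc2 and Asah1, 783 kept their side of the threshold, 12 no longer passed and 3 newly passed. Of the called values 0 reversed, while some values that did not pass changed sign, as given below. The line as a block moved no count of called members by over 1.5 times, and calls it changed are given above. Upper-quartile scaling moved the median of all genes by -0.12 in KO XEN against KO ESC and by -0.17 in WT XEN against KO ESC, and log2 fold changes against KO ESC shifted with it. Among members that did not pass, the sign of Psap and Grn in KO XEN against WT XEN, of Ctsk, Ids and Scarb2 in KO XEN against KO ESC, and of Ctsf in WT XEN against KO ESC changed in at least 1 setting; the cause was not tested. A library left out of a group of 2 leaves a lone sample that is assumed to vary like the others. KO XEN C4 had the lowest depth, 13941826 counts, and Ctsk and Ctss had too few counts there for small differences to be detectable.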
